A study of Homo sapiens with 12 samples.

Results

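The genes described here are 56 genes of ribosome biogenesis and related growth, taken from a bulk RNA sequencing table of HEK293 cells by their gene symbols. They cover RNA polymerase I and its factors, the proteins of small nucleolar RNA particles, nucleolar scaffold proteins, assembly factors of the small and the large ribosomal subunit, and 3 other genes linked to the transcription factor MYC. They are 56 of 56634 gene symbols in the table, and all 56 were among the 14822 genes that passed a filter on low counts and were tested. The question was whether these genes follow the fall of MYC RNA seen with Senexin B within 3 h.

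HEK293 is a line of human embryonic kidney origin that expresses some neuronal genes. Cells of the TNF_SnxB group were given 1 µM Senexin B, which inhibits CDK8 and CDK19 (the kinases of Mediator), for 1 h and then 10 ng/mL of the cytokine TNFα for 2 h. Cells of the SnxB group had the inhibitor at the same dose for 3 h with no TNFα. Cells of the TNF group had 0.1% DMSO, the vehicle, for 1 h before 2 h of TNFα, and cells of the DMSO group had the vehicle for 3 h. Each of the 4 groups had 3 libraries, labelled as biological replicates.

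Ribosomes are made mainly in the nucleolus, where RNA polymerase I transcribes the ribosomal RNA precursor. Small nucleolar RNA particles modify this precursor, and assembly factors fold and cleave it while ribosomal proteins are added. Many of the genes involved are known MYC targets, and MYC with its partner MAX binds the E box, a DNA motif whose preferred form is CACGTG.

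Library totals lay between 8705277 and 50943310 counts. Values are given as CPM, counts scaled to library size after TMM normalization. A total of 3 counts, the detection floor, was 0.0589 to 0.345 CPM, depending on depth, and covers only the error of counting. TNF library 2 held 4.87 times the median total of the others. TNF_SnxB libraries 2 and 3 stood apart from the rest. The chi-square per degree of freedom against TNF_SnxB library 1 was 5.337 and 5.088, while all other pairs of the same group lay between 1.064 and 1.541. In these libraries the deviation of a gene from its mean over all libraries fell with the GC content of its transcript (Spearman -0.683 and -0.682 across genes), against -0.117 to 0.448 in the other 10. Results on TNF_SnxB are therefore given in 3 ways: as fitted, corrected for the GC content and length of transcripts, and with TNF_SnxB libraries 2 and 3 left out. With both left out, the TNF_SnxB group is 1 library, assumed to vary like the libraries of the other groups. Of the HEK293 markers, NEFL had 38.8 to 58.9 CPM and INA 34.6 to 41.1 CPM, while PAX2 and NEFM stayed at or below 1.33 CPM. The defining markers DCN of fibroblasts, CDH5 of endothelium and CD3E of T cells had no count in any library, although COL1A1 had 13.7 to 17.2 CPM.

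At the level of single genes the members ranged widely. Per kb of exon in the DMSO group, the median level over members was 35.5 CPM per kb, from 2.86 for PPAN to 709 for NPM1. NPM1 and NCL, the abundant nucleolar proteins nucleophosmin and nucleolin, were followed by the methyltransferase gene FBL at 196 CPM per kb, the snoRNP chaperone gene NOLC1 at 159 and the helicase gene DDX21 at 147. The level of NCL was 282 CPM per kb. Members of the box C/D particles lay at 59.9 to 196 CPM per kb and those of RNA polymerase I at 8.15 to 45.4.

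Stretches of 3 promoters are shown, read for the E box. Sequence of 250 bases upstream of a gene start, from RefSeq on GRCh38.p14, was at hand for 46 of the 56 members, at the first start listed for each gene. CACGTG, which reads the same on both strands, was in 4 of the 46 (8.7%), against 935 of 10325 tested genes with sequence (9.1%) and 6.5% of all 27305 promoters of that table. The 4 members were EBNA1BP2, NAT10, UTP20 and NOP10. UTP20 (chr12:101279855-101280104, + strand) and NOP10 (chr15:34343137-34343386, - strand) are shown because they are also among the members given below with values in each library. The distance of the motif from the start played no part in the choice. DKC1 (chrX:154762614-154762863, + strand) is shown as the member whose fall was called under every setting tried in both Senexin B comparisons. Capitals mark CACGTG.
UTP20: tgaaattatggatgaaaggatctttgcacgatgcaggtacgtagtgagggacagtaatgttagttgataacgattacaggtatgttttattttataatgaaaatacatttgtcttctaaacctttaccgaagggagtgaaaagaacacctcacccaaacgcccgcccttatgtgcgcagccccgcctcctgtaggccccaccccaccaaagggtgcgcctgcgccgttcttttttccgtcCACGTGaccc
NOP10: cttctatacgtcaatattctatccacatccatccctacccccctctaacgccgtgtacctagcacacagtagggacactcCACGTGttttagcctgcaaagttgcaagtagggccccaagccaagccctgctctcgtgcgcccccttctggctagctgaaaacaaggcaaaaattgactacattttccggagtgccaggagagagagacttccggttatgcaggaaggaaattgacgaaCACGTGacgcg
DKC1: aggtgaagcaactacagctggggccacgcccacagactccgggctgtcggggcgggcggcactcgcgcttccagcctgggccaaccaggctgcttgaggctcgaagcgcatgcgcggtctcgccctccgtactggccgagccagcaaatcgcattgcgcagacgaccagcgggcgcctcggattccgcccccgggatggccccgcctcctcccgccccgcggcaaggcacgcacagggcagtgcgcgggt
In UTP20 the motif begins 10 bases upstream of the RefSeq start, and in NOP10 its copies begin 170 and 11 bases upstream. Starts differ between annotations. The windows of NOP10 and DKC1 run past the start of the gene in the GENCODE annotation, so the nearer NOP10 copy lies inside that gene, while the UTP20 window ends before it. The motif CACGTG does not occur in the DKC1 window, which says nothing about other places in that gene.

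MYC itself fell steeply under Senexin B. Its level was 17.8, 17.4 and 18.9 CPM in the SnxB libraries, against 87.9, 95.6 and 89.7 CPM in the DMSO libraries. It was 25.0, 21.2 and 19.5 CPM in the TNF_SnxB libraries, against 91.7, 87.9 and 92.0 CPM in the TNF libraries. All 6 libraries with Senexin B lay far below all 6 without it. The log2 fold change was -2.33 (SE 0.073, a 5.04-fold fall) in SnxB against DMSO and -2.06 (SE 0.066, a 4.17-fold fall) in TNF_SnxB against TNF, with edgeR adjusted p = 4.29e-20 and 5.56e-20. Corrected, and with TNF_SnxB libraries 2 and 3 left out, the second value was -1.97 and -1.84. TNFα left it about level, at a log2 fold change of -0.01 (95% interval -0.12 to 0.09) in TNF against DMSO. The drug's targets changed little in SnxB against DMSO, at -0.04 (interval -0.18 to 0.11) for CDK8 and -0.01 (interval -0.18 to 0.15) for CDK19. In TNF_SnxB against TNF CDK19 stood at 0.19 as fitted (edgeR adjusted p = 0.0408), 0.09 corrected (adjusted p = 0.37) and -0.04 with the libraries left out (adjusted p = 0.932).

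A minority of the ribosome biogenesis genes fell in SnxB, each by far less than MYC. Of the 56 members 8 fell and 0 rose at an adjusted p under 0.05, the threshold used throughout. The test was edgeR's quasi-likelihood F test with Benjamini-Hochberg adjustment over all 14822 genes. Among all tested genes 1.69% were called lower and 0.344% higher. A fold change below 0 was found for 47 of the 56, and the median log2 fold change of the members was -0.073, against 0.003 over all tested genes. For 28 of the 56 all SnxB libraries lay below all DMSO libraries, and for 0 all lay above, while 10.9% of tested genes had all SnxB libraries below and 9.49% had all above.

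Member fold changes ran from -0.20 (POLR1E) to 0.09 (NOC4L) on the log2 scale. The lowest bound of any member's 95% interval was -0.33, for POLR1E, a 1.26-fold fall. No interval reached -0.5, so a fall of MYC's size is outside the interval of each of the 56. Summed over the members, the level was 13870, 13746 and 13670 CPM in SnxB, against 14951, 14538 and 14720 CPM in DMSO, a change of -6.61%. The SnxB sums all lay below the DMSO sums. NPM1 and NCL weigh most in the sums, with means of 2713 and 1956 CPM of the mean 14736 CPM in DMSO. In bulk libraries fewer cells of a type and less RNA per cell cannot be told apart, and CPM is a share of the library. The summed level of the 5 HEK293 markers was also lower with Senexin B, at 79.4 to 82.8 CPM in TNF_SnxB and 82.1 to 91.8 CPM in SnxB, against 95.3 to 104 CPM in TNF and 104 to 105 CPM in DMSO. Its part in the members' result was not tested.

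**Figure D1:**
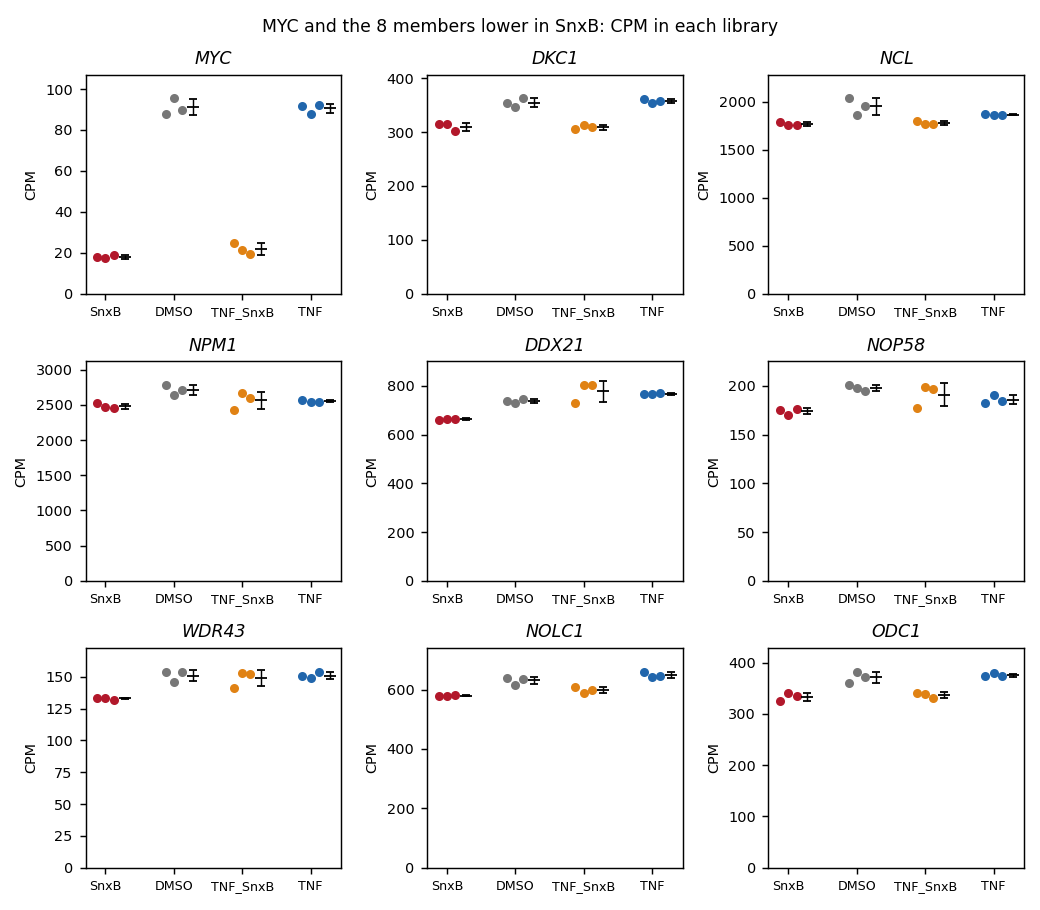
Level in CPM (vertical axis, from 0) of MYC and of the 8 members called lower in SnxB against DMSO, in each library of the 4 groups (horizontal axis). Points are libraries, bars the mean and SD of 3 libraries. MYC averages 18.0 CPM in SnxB and 91.1 CPM in DMSO, while the SnxB libraries of each member lie only slightly below its DMSO libraries.

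The count of 8 changed with the fit. It was 17 after the GC and length correction (3.48% of tested genes called lower), 20 with TNF_SnxB libraries 2 and 3 left out (4.2% called lower), and 18 when only the SnxB and DMSO libraries were fitted (4.96% called in either direction). The 8 were among the calls of both of the first 2 alternatives. Leaving out a single library gave 3 calls without DMSO library 1, SnxB library 1 or SnxB library 3, 4 without DMSO library 3 or SnxB library 2, and 20 without TNF_SnxB library 1. Of all tested genes up to 1.35% were called in either direction in the fits with 3 or 4 calls, and 5.96% in the one with 20. The fold changes moved little, with a median over members between -0.0859 and -0.0643.

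Of the 7 members of the RNA polymerase I machinery, 0 were called in SnxB against DMSO by edgeR, 3 had an unadjusted p under 0.05, and the median log2 fold change was -0.07. POLR1E, a subunit of RNA polymerase I, had 50.9, 52.9 and 47.3 CPM in SnxB, against 58.1, 55.1 and 60.6 CPM in DMSO. The groups did not overlap, at a log2 fold change of -0.20 (SE 0.062, edgeR adjusted p = 0.101). The second largest subunit gene POLR1B stood at -0.18 (edgeR adjusted p = 0.0622), and both passed after the GC and length correction, with adjusted p = 0.0284 for POLR1E and 0.00281 for POLR1B. UBTF, which binds ribosomal DNA and opens it for the polymerase, had 320, 327 and 319 CPM in SnxB, against 320.3, 313 and 319.6 CPM in DMSO, and its groups overlapped. The initiation factor gene RRN3 stood at 0.01 (edgeR adjusted p = 0.982). Its pseudogenes, 3 symbols in the table, held 8.83% as many counts as RRN3, so its counts are uncertain to that extent.

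Among the 3 box C/D genes, whose particles guide methylation of ribosomal RNA, NOP58 fell. This core protein gene had 175, 170.3 and 176 CPM in SnxB, against 201, 198 and 195 CPM in DMSO. The groups were well separated, with a log2 fold change of -0.19 (SE 0.044, edgeR adjusted p = 0.0169), a fall by 12.2%. Its partner NOP56 stood at -0.12 (edgeR adjusted p = 0.135, and 0.00855 after the correction). FBL, the methyltransferase of these particles, had 412, 396 and 403 CPM in SnxB, against 438, 419 and 419 CPM in DMSO. Its groups did not overlap, at -0.08 (SE 0.041, edgeR adjusted p = 0.493).

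Of the 4 genes of the box H/ACA particles, which guide pseudouridylation and also serve telomerase, 1 fell. DKC1, the pseudouridine synthase, had 315, 314 and 302 CPM in SnxB, against 354, 346 and 363 CPM in DMSO. It also had 305, 313 and 309 CPM in TNF_SnxB, against 362, 354 and 357 CPM in TNF. The 6 libraries with Senexin B lay at 302 to 315 CPM and the 6 without at 346 to 363 CPM. The log2 fold change was -0.19 (SE 0.035, edgeR adjusted p = 9.34e-04) in SnxB against DMSO and -0.21 (SE 0.034, edgeR adjusted p = 8.63e-05) in TNF_SnxB against TNF, falls by 12.6% and 13.5%. After the correction these values were -0.19 and -0.21, and with TNF_SnxB libraries 2 and 3 left out -0.19 and -0.23. The other core proteins had log2 fold changes of -0.05 (NHP2), -0.03 (GAR1) and 0.05 (NOP10) in SnxB against DMSO. NOP10, a small structural subunit, had 74.0, 73.2 and 71.7 CPM in SnxB, against 68.7, 69.0 and 72.9 CPM in DMSO, with overlapping groups (edgeR adjusted p = 0.767). Exons of NHP2 overlap those of RMND5B on the other strand over 27.42% of their length, and its counts are uncertain since the strand setting of the counting is not given.

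Nucleolar scaffold and helicase genes held 4 of the 8 falls, where 1.69% of tested genes were called lower. Their median standard error was 0.0336, against 0.0469 over members, so a smaller change could be called in this group. All 7 genes of this group were below 0, with a median log2 fold change of -0.13. After the GC and length correction 6 were called lower, where 3.48% of tested genes were. NCL had 1796, 1765 and 1755 CPM in SnxB, against 2041, 1867 and 1958 CPM in DMSO. NPM1 had 2520, 2469.6 and 2454 CPM in SnxB, against 2784, 2637 and 2717 CPM in DMSO. For both the SnxB libraries were all lower, with log2 fold changes of -0.14 (SE 0.029, edgeR adjusted p = 0.00314) for NCL and -0.13 (SE 0.029, edgeR adjusted p = 0.0114) for NPM1. The 45 NPM1 pseudogene symbols in the table held 0.691% as many counts as NPM1.

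DDX21, an RNA helicase of the nucleolus, had 661, 664 and 666 CPM in SnxB, against 739.9, 731 and 748 CPM in DMSO. NOLC1, which chaperones small nucleolar particles, had 578, 579.7 and 581 CPM in SnxB, against 639, 617 and 636 CPM in DMSO. Replicates of SnxB were close together for both genes and lay below all DMSO libraries. The log2 fold changes were -0.16 (SE 0.034, edgeR adjusted p = 0.00696) for DDX21 and -0.12 (SE 0.031, edgeR adjusted p = 0.0295) for NOLC1. Nucleostemin, GNL3, was just outside the threshold at -0.14 (edgeR adjusted p = 0.0656). LYAR, a nucleolar zinc finger protein gene, stood at -0.13 (adjusted p = 0.244), and MYBBP1A, a MYB-binding nucleolar protein gene, at -0.08 (adjusted p = 0.525).

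Of the 14 small subunit factors 1 fell as fitted and 2 after the GC and length correction, and the median as fitted was -0.067. Of all tested genes 1.69% were called lower as fitted and 3.48% after the correction. WDR43, a component of the early complex that joins transcription and processing of the precursor, had 133, 133 and 132 CPM in SnxB, against 154, 146 and 154 CPM in DMSO. The SnxB libraries were nearly equal and all lower, with a log2 fold change of -0.19 (SE 0.044, edgeR adjusted p = 0.0158), a fall by 12.3%. The highest members of the whole set were in this group. NOC4L had 52.6, 46.5 and 48.0 CPM in SnxB, against 43.0, 48.7 and 46.3 CPM in DMSO, a log2 fold change of 0.09 (SE 0.067, edgeR adjusted p = 0.652). UTP20, a large scaffold protein of the small subunit processome, had 97.8, 101 and 95 CPM in SnxB, against 91.6, 91.5 and 97.1 CPM in DMSO, a change of 0.07 (SE 0.061, edgeR adjusted p = 0.723). Both genes had overlapping groups.

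Of the 18 large subunit factors 0 were called in SnxB against DMSO by edgeR as fitted, 6 had an unadjusted p under 0.05, and the median was -0.053. After the GC and length correction 3 of the 18 were called lower, where 3.48% of tested genes were. RRS1, which in yeast helps place the 5S RNA particle, had 52.5, 46.5 and 47.3 CPM in SnxB, against 55.4, 52.8 and 58.1 CPM in DMSO. RRP1 had 179, 170 and 171 CPM in SnxB, against 199, 192 and 183 CPM in DMSO. For each of these genes all SnxB libraries lay below all DMSO libraries. The log2 fold changes were -0.19 (SE 0.067, edgeR adjusted p = 0.187) for RRS1 and -0.15 (SE 0.046, edgeR adjusted p = 0.117) for RRP1. The 3 genes of the PeBoW complex stood at -0.13 for PES1 (edgeR adjusted p = 0.221), -0.04 for WDR12 (adjusted p = 0.854) and 0.01 for BOP1 (adjusted p = 0.987), and none passed as fitted. PES1 and RRP1 were each called in 5 of 21 alternative fits, RRS1 in 4 and NOP16 in 3. PES1 had 245, 225 and 238 CPM in SnxB, against 260.5, 263 and 249 CPM in DMSO, without overlap. NOP16 had 55.5, 56.1 and 59.4 CPM in SnxB, against 64.1, 63.4 and 64.8 CPM in DMSO, also without overlap (-0.17, SE 0.058, edgeR adjusted p = 0.161). Exons of NOP16 overlap those of ARL10 and HIGD2A on the other strand over 12.02% and 7.93% of their length.

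ODC1, the rate-limiting enzyme of polyamine synthesis and a textbook MYC target, fell. It had 325, 341 and 335 CPM in SnxB, against 360.1, 382 and 372 CPM in DMSO, and 341, 339 and 330.3 CPM in TNF_SnxB, against 373, 379 and 373 CPM in TNF. All 6 libraries with Senexin B lay below all 6 without it. With TNF_SnxB libraries 2 and 3 left out, ODC1 stood at -0.14 (edgeR adjusted p = 0.0145) in TNF_SnxB against TNF. As fitted, the log2 fold change was -0.15 in both comparisons (SE 0.035 and 0.034, edgeR adjusted p = 0.0124 in SnxB against DMSO and 0.00176 in TNF_SnxB against TNF), a fall by 10.2% in each. CAD, which starts pyrimidine synthesis, stood at 0.04 (edgeR adjusted p = 0.816) in SnxB against DMSO, and POLR3G, an RNA polymerase III subunit gene, at -0.09 (edgeR adjusted p = 0.686).

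**Figure D2:**
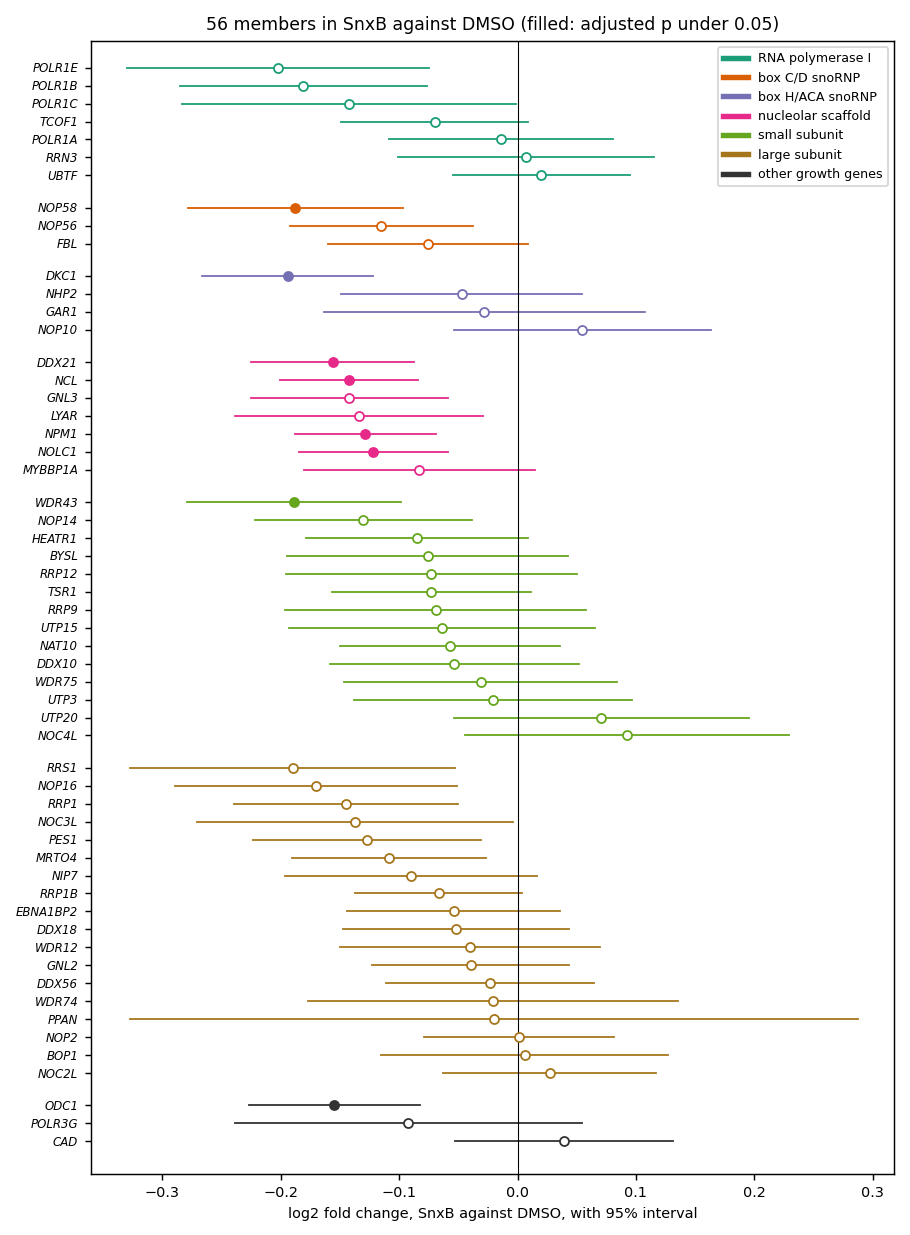
Log2 fold change in SnxB against DMSO (horizontal axis) of all 56 members, grouped by role and colour, with 95% intervals from the edgeR fit. Filled points passed an adjusted p of 0.05. Of 56 points 47 lie left of 0, 8 are filled, and no interval reaches -0.5.

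Members with and without the E box can be set side by side, as a description. In SnxB against DMSO the log2 fold changes of the 4 members with CACGTG upstream ran from -0.057 to 0.071. Those of the 42 with sequence and without the motif in that stretch ran from -0.194 to 0.093, and the 6 called members with sequence were all among these 42. Other places in these genes were not searched, and 4 members are too few for a comparison.

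In cells that also received TNFα, Senexin B again lowered the members' sum. It was 13891, 13955 and 13833 CPM in TNF_SnxB, against 14758, 14656 and 14642 CPM in TNF, a change of -5.39% with no overlap. As fitted, 27 members fell and 1 rose (UTP15, a small subunit processome component, at 0.17, edgeR adjusted p = 0.0259, and 0.00 corrected). In this comparison 13.9% of all tested genes were called lower and 13.3% higher. The median log2 fold change was -0.112 over members and 0.001 over all tested genes. All 3 TNF_SnxB libraries lay below all TNF libraries for 29 of the 56, against 16.4% of tested genes. The sums and this count are from CPM without the GC and length correction.

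The size of a member's fold change in TNF_SnxB against TNF went with its GC content. Across the 56 members, which share these 6 libraries, Spearman's coefficient between the fold change and transcript GC was -0.881, against 0.222 in SnxB against DMSO. Transcript GC of the members ran from 34.3 to 65.2%, with a median of 50.7%, against 48.4% over tested genes with a match. Of the 28 members with the higher GC (50.9 to 65.2%) 23 were called lower, and of the 28 with the lower GC (34.3 to 50.6%) 4 were called lower and 1 higher. After the correction the coefficient was 0.0578, and 9 members of the higher GC class and 13 of the lower were called lower.

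Over all members the correction left 22 lower and 0 higher, where 7.34% of tested genes were called lower and 4.55% higher, and a median of -0.076. With TNF_SnxB libraries 2 and 3 left out, 10 members were lower and 0 higher, against 1.97% lower and 0.722% higher among tested genes, with a median of -0.075. Of the 27 members called lower as fitted, 12 were also called after the correction. Leaving out TNF_SnxB library 1 gave 49 calls, 36 lower and 13 higher, where 45.8% of tested genes were called in either direction, and leaving out TNF_SnxB library 3 gave 18, where 12.6% were. The medians after correction (-0.076) and in SnxB against DMSO (-0.073) were close, though this was not tested.

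**Figure D3:**
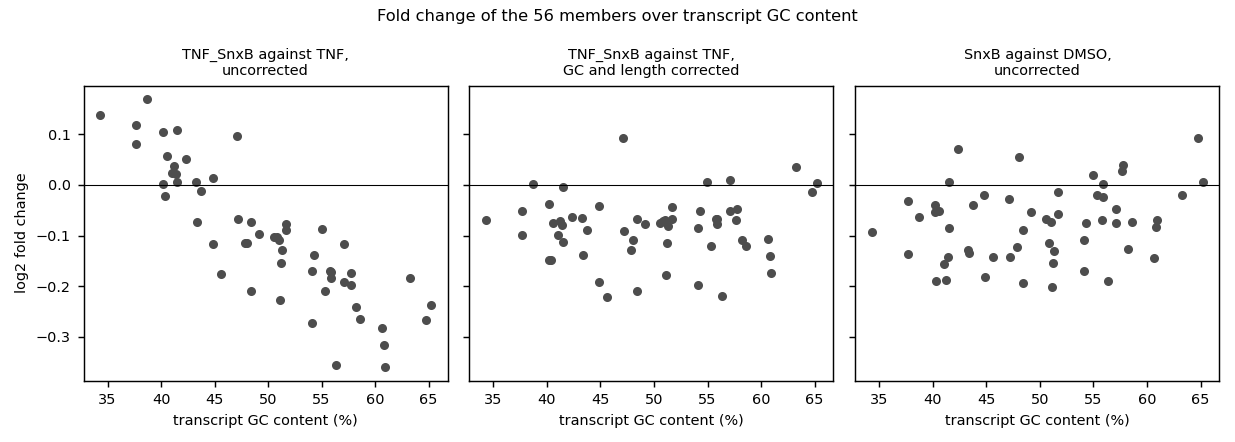
Log2 fold change (vertical axis) of the 56 members over the GC content of their transcripts in percent (horizontal axis). In TNF_SnxB against TNF as fitted (left) the fold change falls with GC, with Spearman's coefficient at -0.881, after the correction (middle) the coefficient is 0.0578, and in SnxB against DMSO (right) it is 0.222.

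The same 7 members were called lower in all 3 ways, namely DKC1, MYBBP1A, NOP16, ODC1, POLR1E, RRP1 and RRS1. The share of all tested genes called lower in all 3 ways was not counted. It cannot exceed the 7.34% called lower after the correction. RRS1 had 47.0, 42.2 and 47.7 CPM in TNF_SnxB, against 57.9, 55.9 and 63.1 CPM in TNF. The groups did not overlap, and the log2 fold change was -0.36 (SE 0.062, edgeR adjusted p = 1.73e-04), -0.22 after the correction and -0.30 with the libraries left out. POLR1E had 49.3, 47.6 and 53.7 CPM in TNF_SnxB, against 61.2, 58.6 and 57.4 CPM in TNF, also without overlap. Its log2 fold change was -0.23 (SE 0.057, edgeR adjusted p = 0.00447), -0.18 after the correction and -0.26 with the libraries left out.

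RRP1 had 168, 156 and 149 CPM in TNF_SnxB, against 188, 189.7 and 197 CPM in TNF, and MYBBP1A had 254, 226 and 215 CPM in TNF_SnxB, against 281, 287 and 293 CPM in TNF. In both genes TNF_SnxB library 1 was the nearest to the TNF libraries, and the correction brought the log2 fold change of RRP1 from -0.28 to -0.11 and that of MYBBP1A from -0.32 to -0.14. With the libraries left out they were -0.19 and -0.18. NOP16 had 58.2, 56.2 and 55.1 CPM in TNF_SnxB, against 62.3, 71.2 and 67.8 CPM in TNF. Its groups did not overlap (-0.27, SE 0.054, edgeR adjusted p = 5.81e-04, -0.20 after the correction and -0.25 with the libraries left out). PES1 was called as fitted (-0.24, edgeR adjusted p = 4.12e-04) and corrected (-0.11, adjusted p = 0.00531), and not with the libraries left out (-0.11, adjusted p = 0.183).

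DDX21 and NPM1, which fell in SnxB, overlapped with TNF in TNF_SnxB as fitted. DDX21 had 729, 804 and 802 CPM in TNF_SnxB, against 765, 765 and 771 CPM in TNF. NPM1 had 2432, 2667 and 2593 CPM in TNF_SnxB, against 2576, 2546 and 2543 CPM in TNF. In both genes TNF_SnxB library 1 was below the TNF libraries and libraries 2 and 3 above them. The log2 fold change of DDX21 was 0.02 as fitted (edgeR adjusted p = 0.644), -0.10 corrected (adjusted p = 0.00113) and -0.07 with the libraries left out (adjusted p = 0.212). That of NPM1 was 0.01 as fitted (edgeR adjusted p = 0.914), -0.07 corrected (adjusted p = 0.0372) and -0.07 with the libraries left out (adjusted p = 0.113).

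NOP58 had 177, 199 and 197 CPM in TNF_SnxB, against 182, 191 and 184 CPM in TNF, and WDR43 had 141, 153 and 152 CPM in TNF_SnxB, against 151, 149 and 154 CPM in TNF. Here too TNF_SnxB library 1 was the lowest, and the groups overlapped. After the correction WDR43 fell (-0.15, edgeR adjusted p = 3.21e-04) and NOP58 stood at -0.07 (adjusted p = 0.101). NCL had 1801, 1771 and 1768 CPM in TNF_SnxB, against 1872, 1864 and 1860.2 CPM in TNF, without overlap, at -0.07 as fitted (edgeR adjusted p = 0.0749) and -0.09 corrected (adjusted p = 0.00655). NOLC1 had 610.2, 588 and 599 CPM in TNF_SnxB, against 660.0, 642 and 645 CPM in TNF, and fell both as fitted (-0.11, edgeR adjusted p = 0.00635) and corrected (-0.13, adjusted p = 8.52e-05). FBL, of higher GC, fell as fitted (-0.14, edgeR adjusted p = 0.0121), with 423, 364 and 378 CPM in TNF_SnxB, against 425, 426 and 428 CPM in TNF. After the correction it stood at -0.05 (adjusted p = 0.218). With TNF_SnxB libraries 2 and 3 left out the values were -0.09 for WDR43, -0.08 for NOP58, -0.05 for NCL, -0.09 for NOLC1 and -0.01 for FBL, with edgeR adjusted p from 0.128 (NOLC1) to 0.919 (FBL).

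Called lower in both Senexin B comparisons as fitted were 3 members, DKC1, NOLC1 and ODC1, which are 3 of the 8 in SnxB against DMSO and 3 of the 27 in TNF_SnxB against TNF. Of all tested genes 1.17% were called lower in both. After the correction 13 members were called in both, of 17 and of 22, where 2.48% of tested genes were. They were these 3 and DDX21, GNL3, MYBBP1A, NCL, NPM1, PES1, POLR1B, POLR1E, RRP1 and WDR43.

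The Senexin B effect averaged over cells with and without TNFα draws on all 12 libraries. As fitted 27 members fell and 0 rose, with 8.35% of tested genes called lower and 7.23% higher and a median of -0.091. After the correction 31 fell (8.64% of tested genes), and with TNF_SnxB libraries 2 and 3 left out 26 fell (5.06%). Called in all 3 ways were 20 members, and 16 of them were called in each of 20 settings tried. The share of all tested genes called lower in all 3 ways, or in each setting, was not counted. In all 3 ways it cannot exceed the smallest of the shares called lower given above, which is that with TNF_SnxB libraries 2 and 3 left out. The 16 were DKC1, MRTO4, MYBBP1A, NCL, NOLC1, NOP14, NOP16, NOP56, ODC1, PES1, POLR1B, POLR1E, RRP1, RRP9, RRS1 and TCOF1. DKC1 had the smallest adjusted p (-0.20, SE 0.025, edgeR adjusted p = 8.7e-07), and RRS1 the lowest log2 fold change (-0.27, SE 0.046, edgeR adjusted p = 1.12e-04). The lowest bound of any interval was -0.367, a 1.29-fold fall, while MYC stood at -2.20 (SE 0.049).

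By role, the corrected average effect was called lower in 7 of 7 nucleolar scaffold genes, 3 of 3 box C/D genes, 1 of 4 box H/ACA genes, 4 of 7 RNA polymerase I genes, 6 of 14 small subunit factors, 9 of 18 large subunit factors and 1 of 3 other growth genes. As fitted the counts in the same order were 5, 2, 2, 4, 5, 8 and 1. Of all tested genes 8.64% were called lower corrected and 8.35% as fitted. UBTF stood at 0.01 corrected (edgeR adjusted p = 0.859) and RRN3 was also not called (adjusted p = 0.929), while POLR1C, a subunit shared by RNA polymerases I and III, was called (-0.16 as fitted, edgeR adjusted p = 0.0198, and 0.00179 corrected).

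TNFα alone moved few of these genes. In TNF against DMSO edgeR called 0 of 56 members, 5 had an unadjusted p under 0.05, and DESeq2 called 0, where 0.594% of tested genes were called lower and 1.43% higher. The correction gave 2 calls (3.8% of tested genes in either direction), DDX21 higher and UBTF lower, and the fit without TNF_SnxB libraries 2 and 3 gave 6 (5.84%). The median was 0.036 over members and -0.002 over all tested genes, and the sum changed by -0.346%. UBTF had 295, 295 and 301 CPM in TNF, against 320.3, 313 and 319.6 CPM in DMSO, without overlap. Its log2 fold change was -0.10 (SE 0.036, edgeR adjusted p = 0.231) as fitted and -0.12 (adjusted p = 0.00192) corrected.

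At the other end PPAN, NOC4L and RRP12 had the highest fold changes in TNF against DMSO as fitted, at 0.21, 0.18 and 0.13. Their transcripts hold 63.2%, 64.8% and 58.6% GC. Of the lowest members here, POLR3G holds 34.3% and UBTF 55%. Over the members Spearman's coefficient between this fold change and GC was 0.46 as fitted and 0.0762 after the correction. In the TNF libraries the deviation of a gene rose with GC (Spearman 0.382 to 0.448 across genes). The part of GC in these fold changes was not tested. NOC4L had 52.8, 50.7 and 53.5 CPM in TNF, against 43.0, 48.7 and 46.3 CPM in DMSO, without overlap (edgeR adjusted p = 0.185). RRP12, known in yeast for the export of subunits, had 123, 119.6 and 121 CPM in TNF, against 108, 114 and 111 CPM in DMSO, also without overlap (edgeR adjusted p = 0.416). PPAN was the least abundant member, with 8.19, 8.63 and 8.45 CPM in TNF, against 7.72, 8.00 and 6.47 CPM in DMSO (edgeR adjusted p = 0.641). It shares 56.02% of its exon length with the readthrough gene PPAN-P2RY11, so its counts are uncertain. POLR3G had 37.8, 38.7 and 42.7 CPM in TNF, against 43.4, 41.3 and 44.5 CPM in DMSO, with overlapping groups (-0.13, edgeR adjusted p = 0.532).

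Whether the Senexin B effect differed with TNFα was tested by the interaction, the log2 effect in TNF_SnxB against TNF minus that in SnxB against DMSO. As fitted 4 members passed, NOC4L at -0.36 and NOC2L at -0.23, and DDX21 at 0.18 and NOP58 at 0.23 (edgeR adjusted p = 0.0377, 0.0469, 0.0405 and 0.0455, in that order). Among tested genes 1.61% were called below 0 and 0.891% above. NOC2L, whose yeast counterpart acts in the transport of early large subunit particles, had 361, 312 and 309 CPM in TNF_SnxB, against 378, 372 and 374 CPM in TNF, and 361, 369 and 369.6 CPM in SnxB, against 366, 367 and 347 CPM in DMSO. NOC4L had 47.0, 42.7 and 40.8 CPM in TNF_SnxB, against 52.8, 50.7 and 53.5 CPM in TNF. Libraries 2 and 3 of TNF_SnxB were the low ones in both genes, and their GC content, 57.7% for NOC2L and 64.8% for NOC4L, is among the higher values. The transcripts of DDX21 and NOP58 hold 41.1% and 41.3% GC, and in both the same 2 libraries were the high ones. Spearman's coefficient between interaction and GC over the 56 members was -0.924 as fitted. After the correction 0 of 56 passed by edgeR (3 at an unadjusted p under 0.05; 0.31% of tested genes called), and with TNF_SnxB libraries 2 and 3 left out 0 passed (5 at an unadjusted p under 0.05; 0.115%). DESeq2 called 7 on the uncorrected counts, where 2.78% of tested genes were called. MYC had an interaction of 0.27 as fitted (95% interval 0.06 to 0.49, edgeR adjusted p = 0.117), 0.36 corrected (adjusted p = 0.0585) and 0.49 with the libraries left out (adjusted p = 0.0963).

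Further genes of the pathway that are not among the 56 were read from 5 lists. In SnxB against DMSO the fit called 2 of 40 other small subunit factors lower, 2 of 41 other large subunit factors and 0 of 27 other genes of RNA polymerases I and III (3 at an unadjusted p under 0.05). It called 9 of 43 other MYC-linked growth genes lower and 2 of 11 genes of the MYC network, namely MYC itself and MNT. Among all tested genes 1.69% were called lower. None of these 5 lists had a gene called higher. Their medians were -0.067, -0.064, -0.038, -0.079 and -0.078, against -0.073 for the members and 0.003 over all tested genes. After the correction the calls were 6, 8, 1, 16 and 3, all lower, where 3.48% of tested genes were called lower. MYC was again among the last 3.

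RCL1, a factor of the small subunit, had 27.3, 24.5 and 23.6 CPM in SnxB, against 30.9, 30.5 and 33.9 CPM in DMSO (-0.34, SE 0.074, edgeR adjusted p = 0.0079). TEX10, which acts in large subunit maturation, stood at -0.24 (edgeR adjusted p = 0.0277) and URB2 at -0.18 (adjusted p = 0.0234). The genes named here were picked from their lists for the smallest adjusted p of the average effect. The list with TEX10 and URB2 had a median of -0.064, against -0.073 for the members. SLC16A1, a lactate transporter gene, had 296, 306 and 297 CPM in SnxB, against 365, 353 and 357 CPM in DMSO (-0.26, SE 0.035, edgeR adjusted p = 1e-05), and CDC25A, a cell cycle phosphatase gene, stood at -0.26 (edgeR adjusted p = 2.94e-04). In the MYC network MNT, a MAX partner that represses MYC targets, fell along with MYC (-0.46, edgeR adjusted p = 0.00349), with 16.2, 17.2 and 16.6 CPM in SnxB, against 24.4, 23.1 and 21.3 CPM in DMSO. Its groups did not overlap. It also fell in TNF against DMSO as fitted (-0.31, edgeR adjusted p = 0.0384), and in 12 of 21 alternatives, with an adjusted p of up to 0.307 (without DMSO library 1).

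**Figure D4:**
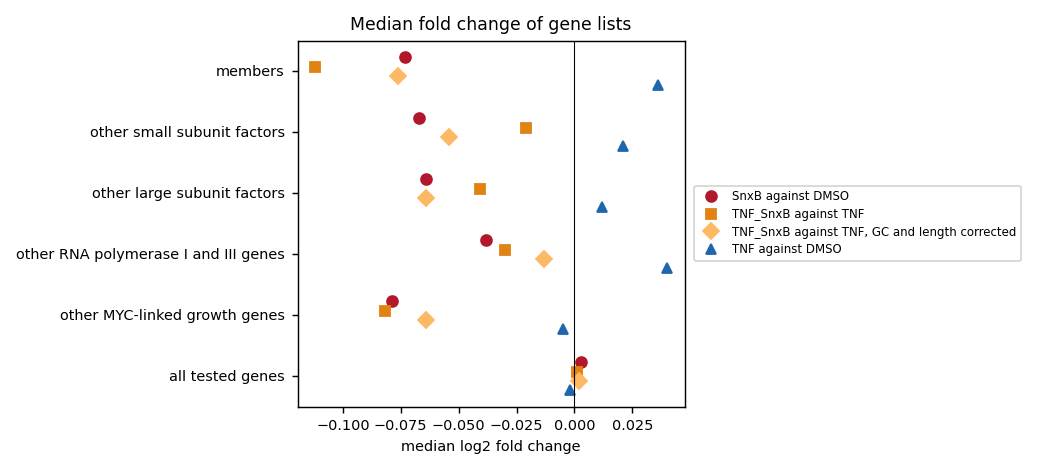
Median log2 fold change (horizontal axis) of the 56 members, of 4 lists of other genes and of all tested genes, in 3 comparisons and, for TNF_SnxB against TNF, also after the correction. In SnxB against DMSO the members' median is -0.073 and that of all tested genes 0.003, and the 4 lists lie between -0.079 and -0.038.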

How the data were processed

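Per the labels, RNA was prepared with an RNeasy kit and an Illumina TruSeq RNA kit, and per the submitters' processing notes the build was hg38 and the tools were STAR 2.4, SAMtools 1.2, Subread 1.4.6 and featureCounts. The deposited values are raw counts for each gene symbol. The sources used here do not give the annotation or the strand setting. Genes were filtered with filterByExpr, scaled by TMM and fitted in R 4.3.3 with edgeR 4.0.16 (quasi-likelihood F test, two-sided, group means, all 12 libraries), with p-values adjusted by Benjamini-Hochberg over all 14822 tested genes and calls at 0.05. DESeq2 1.42.0 was an alternative. Intervals are 95%. The GC and length correction used loess offsets per library (span 0.3) from GENCODE 29 transcripts, matched by symbol for 13419 tested genes (90.5%) and all 56 members, and others stayed uncorrected. Scripts were tested on simulated data. Libraries were not treated as paired by replicate number. Of 18 correlations between same-numbered libraries of different groups 0 were over 0.1 (-0.0402 to 0.0941). With 3 libraries a group such values cannot exclude a pairing. Counts with a replicate block are given below.

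The members and lists were chosen with earlier results of these data known. Members given with values in each library were those called in SnxB against DMSO or the interaction, the 10 with the smallest adjusted p for the average effect, the 5 with the highest level per kb, and the 3 highest and 3 lowest in SnxB against DMSO and in TNF against DMSO. POLR1B, NOP56, GNL3, LYAR, NHP2, GAR1, WDR12, BOP1, RRN3, CAD, POLR1C and UTP15 were added after their values were seen.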

Additional observations from a re-analysis of the deposited data

Results flagged for a closer look

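The Senexin B effect differed between cells with and without TNFα for 6 named genes by the interaction test of edgeR as fitted. The difference, on the log2 scale, was -0.3596 for NOC4L, -0.2256 for NOC2L, 0.1793 for DDX21 and 0.2261 for NOP58 among the ribosome biogenesis genes. Among the genes of the lists it was 0.2023 for SLC16A1 and -0.3694 for MXD4, a MAX partner. After the GC and length correction the values were -0.0867 for NOC4L, -0.0858 for NOC2L, 0.0529 for DDX21, 0.0984 for NOP58, 0.1127 for SLC16A1 and -0.2254 for MXD4, and 0 of the 6 passed (edgeR adjusted p = 0.0565 for MXD4, the smallest). With TNF_SnxB libraries 2 and 3 left out they were -0.2314 for NOC4L, -0.0801 for NOC2L, 0.0831 for DDX21, 0.1055 for NOP58, 0.1671 for SLC16A1 and -0.1587 for MXD4, and 0 of the 6 passed (edgeR adjusted p = 0.142 for SLC16A1, the smallest).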

How the results depend on the processing

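The count of members called in SnxB against DMSO (8) was 18 with only the groups compared, 17 with the GC and length correction, 18 with that correction and the replicate block, 20 with TNF_SnxB libraries 2 and 3 left out, and 3 to 20 without single libraries. In TNF_SnxB against TNF (28) it was 10 with both libraries left out and 18 to 49 without single libraries, and for the average effect (27) 21 to 40. In TNF against DMSO (0) it was 6 with only the groups compared, 2 with the correction, 2 with correction and block, 6 with both libraries left out, and 0 to 6 without single libraries (6 without TNF_SnxB replicate 1, 0 without each of the others). For the interaction (4) it was 7 with DESeq2, 8 with no low-count filter, 8 with the replicate block, 0 with the correction, 0 with correction and block, 0 with both libraries left out, and 0 to 30 without single libraries (30 without TNF_SnxB replicate 1, 1 without DMSO replicate 2 and 0 without each of the other 10). With the replicate block alone the other counts were 8, 28, 30 and 0, where 2.06%, 28.1%, 16.4% and 1.96% of tested genes were called. The interaction fits with DESeq2, the replicate block and without TNF_SnxB replicate 1 called 2.78%, 4.97% and 30.5% of tested genes. Without the low-count filter the interaction fit called 2.25% of 31538 genes. For the average effect the fits giving 21 called 10.9% to 11.9%, and the fit giving 40 called 33.6%. In TNF against DMSO, 5.24% were called with only the groups compared and 5.89% without TNF_SnxB replicate 1. Among genes that passed in one of the fits compared, the fold change in TNF_SnxB against TNF reversed for NPM1 (-0.0653 corrected, -0.0652 with correction and block), DDX21 (-0.0998 and -0.1001) and CDK19 (-0.0358 with both libraries left out). Of 945 fold changes of named genes under alternatives to this comparison, 24 others, in 9 genes, changed sign with neither value past the threshold. With both libraries left out these were NPM1 (-0.0717), DDX21 (-0.0732), NOP58 (-0.0826), UTP20 (-0.1547), POLR3G (-0.0558), CDK8 (-0.0425) and PPAN (0.0932). Such changes numbered 11 of 944 in SnxB against DMSO. The cause was not tested. Over all tested genes the calls in SnxB against DMSO (301) were 735 with only the groups compared, 691 corrected and 871 with both libraries left out, and in TNF_SnxB against TNF (4029) they were 1762 corrected and 399 with both left out. With 3 libraries a group and a median standard error of 0.0469 over members in SnxB against DMSO, changes of a few percent in a single gene were not detectable.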
